A study of Macaca mulatta with 12 samples.

Results

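TYROBP and FCER1G, which encode a pair of small signalling adaptors, were followed through the B cells of rhesus macaque blood. These 2 genes, of 22584 listed in the count table, were chosen by their summed counts across B cell subtypes and heavy chain classes, as seen in an earlier look at the same data. Their levels across subtypes and classes, and the LYZ and NKG7 counts of the cells that held them, are therefore given as description without a test. Blood mononuclear cells came from 6 healthy, unmanipulated juvenile animals of Indian origin (Macaca mulatta), 2 to 3 years old, and no group received a treatment. Both males formed batch 1 and all 4 females batch 2, so sex and batch cannot be told apart. A 5' gene expression library and a B cell receptor (BCR) library were made of each animal, 12 libraries in all.

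The authors had annotated 13324 of 13849 cells as 1 of 12 B cell subtypes, and had set 525 apart as Contamination. The B cell markers MS4A1 and CD79A gave a unique molecular identifier (UMI) in 96.7% and 97.7% of B cells with TYROBP. Total UMIs per animal ran from 3642517 in female 4 to 20023015 in female 3, and median UMIs per cell from 3865 to 6727. Across the libraries 96 cell barcodes occurred more than once, in 193 cells. For 10293 B cells the BCR library gave exactly 1 heavy chain whose class was known. Levels are in CPM, raw counts summed per animal and scaled to the summed UMIs of named, non-immunoglobulin genes, and ± gives the SD over animals unless an SE is named. Where ± follows a log2 difference, it gives the SE.

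TYROBP (also called DAP12) and FCER1G (the common Fc receptor gamma chain) are transmembrane proteins with almost no extracellular part. Each carries an immunoreceptor tyrosine-based activation motif (ITAM), is held by charged residues to receptors that cannot signal alone, and recruits kinases of the SRC and SYK families when those receptors bind a ligand. Both are textbook genes of monocytes, other myeloid cells and natural killer (NK) cells. B cells use another ITAM pair, CD79A and CD79B, as the signalling part of their antigen receptor.

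TYROBP was highest in the M-MBC 2 subtype of memory B cells, at 493 ± 124 CPM (n = 6). The 6 animals lay between 335 and 651 CPM there, with a median of 457. In Naive B cells 1 the level was 55.7 ± 19.2 CPM, from 23.5 through a median of 58.3 to 78.6. The groups did not overlap, and within an animal M-MBC 2 was 6.35-fold to 19.2-fold above Naive B cells 1, with a geometric mean of 9.21-fold. Activated B cells came next, at 310 ± 113 CPM, with a lowest value of 171, a median of 277 and a highest of 487. M-MZL BC had 227 ± 79.0 CPM and M-MBC 1 had 204 ± 61.0 CPM. The CD11c+ subtypes split, with 170 ± 31.5 CPM in CD11c+ MBC 1 and 93.2 ± 46.1 CPM in CD11c+ MBC 2. The C-MBC subtypes were lower, with 72.0 ± 47.9 CPM in C-MBC 1 and 29.1 ± 14.2 CPM in C-MBC 2. Naive B cells 2 had 68.9 ± 45.4 CPM, Naive B cells 3 had 10.6 ± 12.2 CPM (n = 4) and antibody-secreting cells 11.3 ± 11.7 CPM (n = 3).

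Within each animal, neighbours in this order could be set against each other. M-MBC 2 stood above Activated B cells, and Activated B cells above M-MZL BC, in 6 of 6 animals and by more than 1 SD of the difference. CD11c+ MBC 1 stood above CD11c+ MBC 2 in 6 of 6 animals, by 1.23-fold to 2.55-fold. Naive B cells 1 stood above C-MBC 2 in 6 of 6 animals, by 26.6 ± 6.31 CPM. The other neighbours, such as M-MZL BC and M-MBC 1 or C-MBC 1 and Naive B cells 2, differed by less than 1 SD, apart from C-MBC 2 over antibody-secreting cells in 3 of 3 animals.

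**Figure D1:**
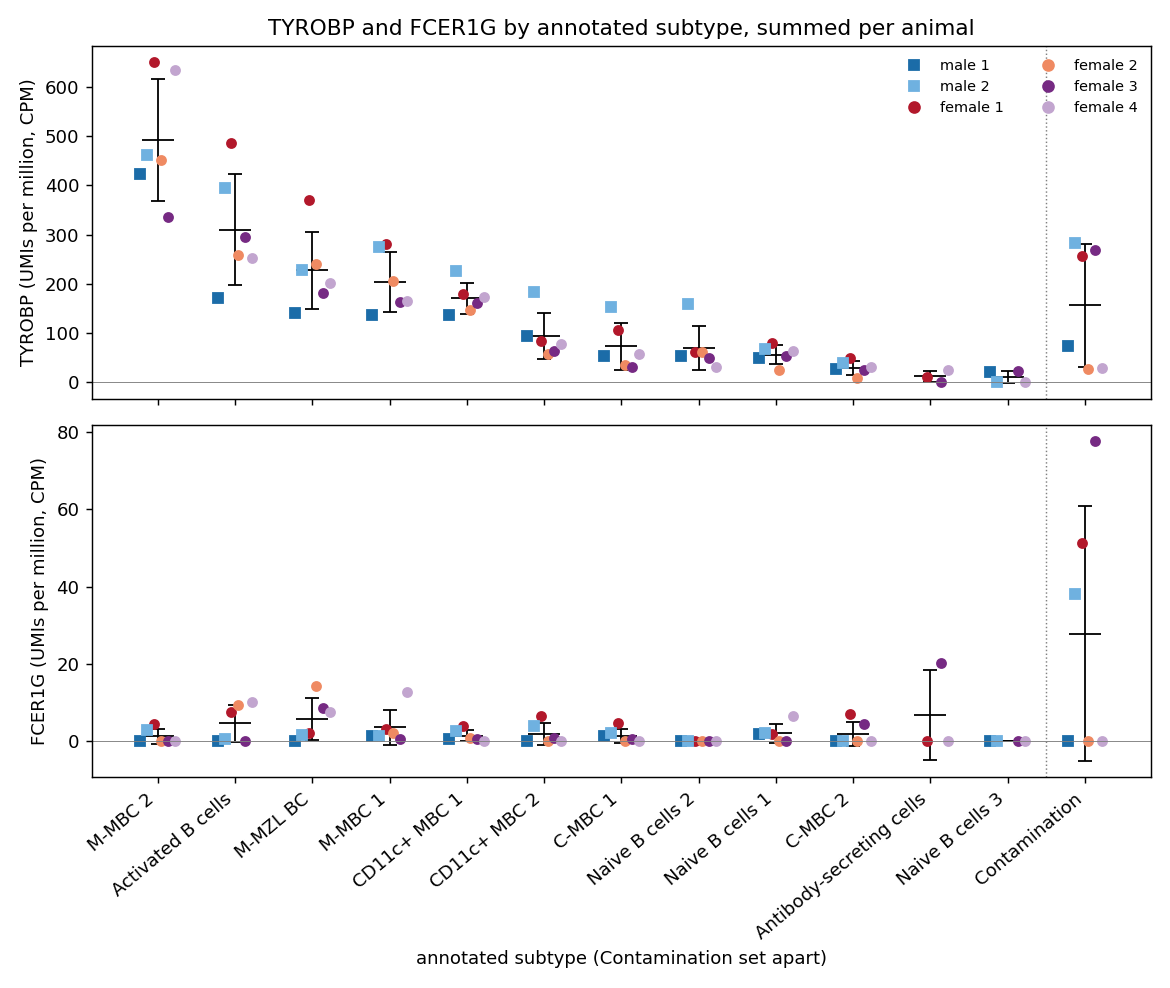
TYROBP (top) and FCER1G (bottom) in CPM of summed counts for each annotated subtype, 1 point per animal (squares male, circles female), with the mean and SD in black. The TYROBP mean is 493 CPM for M-MBC 2 and 10.6 for Naive B cells 3, while FCER1G has its highest points in the Contamination cells, which are set apart on the right.

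The pattern was also visible in single cells. TYROBP gave at least 1 UMI in 4369 of 13324 B cells (32.8%), with 11674 UMIs in all, and 2148 of these cells held exactly 1. Cells with 5 or more UMIs were 4.97% of B cells and held 46.1% of TYROBP UMIs, and the fullest cell held 31. In M-MBC 2, 23.5% of cells reached 5 UMIs, against 0.372% in Naive B cells 1. The share of cells with a TYROBP UMI was 69.3% in M-MBC 2 (95% exact binomial interval 66.2% to 72.3%, median 6447 UMIs per cell) and 14.5% in Naive B cells 1 (12.8% to 16.3%, median 4087). The lowest share was 2.40% in Naive B cells 3, which had a median of 1882 UMIs per cell. These intervals cover counting error only.

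Depth alone was taken out by thinning each cell to 2000 UMIs. TYROBP was then found in 40.4 ± 9.06% of M-MBC 2 cells, 29.4 ± 10.3% of Activated B cells, 24.1 ± 8.37% of M-MZL BC and 6.37 ± 2.61% of Naive B cells 1 (n = 6 animals each). CD11c+ MBC 2, the deepest subtype at a median of 8161 UMIs, had 9.37 ± 3.73% after thinning and 18.6% before. Shallower cells were left out, 6 from M-MBC 2, 26 from Activated B cells, 14 from M-MZL BC, 42 from Naive B cells 1 and 2 from CD11c+ MBC 2.

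TYROBP-positive B cells did not all lack LYZ, the lysozyme gene of monocytes. LYZ gave a UMI in 1115 of 4369 positive cells (25.5%, median 5838 UMIs per cell) and in 1313 of 8955 negative cells (14.7%, median 5109). NKG7, a gene of cytotoxic lymphocyte granules, was in 3.09% of positive and 3.05% of negative cells over all subtypes. Within subtypes it was in 16.5% of positive and 11.5% of negative CD11c+ MBC 2 cells, where it was most frequent among the larger subtypes, in 3.85% and 0.942% of Naive B cells 1, and in 12 of 920 and 19 of 1270 cells of M-MBC 1. Neither gene gave a UMI in 3164 positive cells (72.4%). The other monocyte markers that were counted per cell were rare in positive and negative cells alike. CD14 was in 0.641% and 0.402%, S100A8 in 0.435% and 0.335%, and S100A9 in 0.481% and 0.313%. VCAN was in 0.389% and 0.458%, and FCN1 in 0.0916% and 0.101%. LYZ itself was spread over B cell subtypes, in 36.3% of M-MBC 2 and 29.5% of CD11c+ MBC 2 cells. The 12 monocyte markers summed over the 6 animals to 49.1 through 184 CPM for M-MBC 2, and to 19.2 through 83.8 CPM for Naive B cells 1. Their mean was 111 ± 47.7 and 47.5 ± 24.7 CPM, against 72.1 ± 42.5 and 18.6 ± 15.1 CPM for LYZ alone. LYZ was therefore not the whole of that sum, and the rest was not broken down by gene.

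Without every cell that held LYZ or NKG7, TYROBP remained at 405 ± 99.4 CPM in M-MBC 2 and 48.5 ± 20.9 CPM in Naive B cells 1, and the animals still did not overlap. CD11c+ MBC 2 had 63.7 ± 46.9 CPM under that rule. At least 1 productive heavy chain contig was found in 86.6% of TYROBP-positive and 77.1% of negative B cells, and a second in 4.19% and 1.11%. Contigs were counted whatever their class. By subtype, a second contig was in 5.28% of positive and 4.21% of negative M-MBC 2 cells, and in 2.82% and 0.161% of CD11c+ MBC 2 cells. Every cell had been deposited with the doublet call Singlet and no further caller was run, so the part of joined cells in these shares was not tested.

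**Figure D2:**
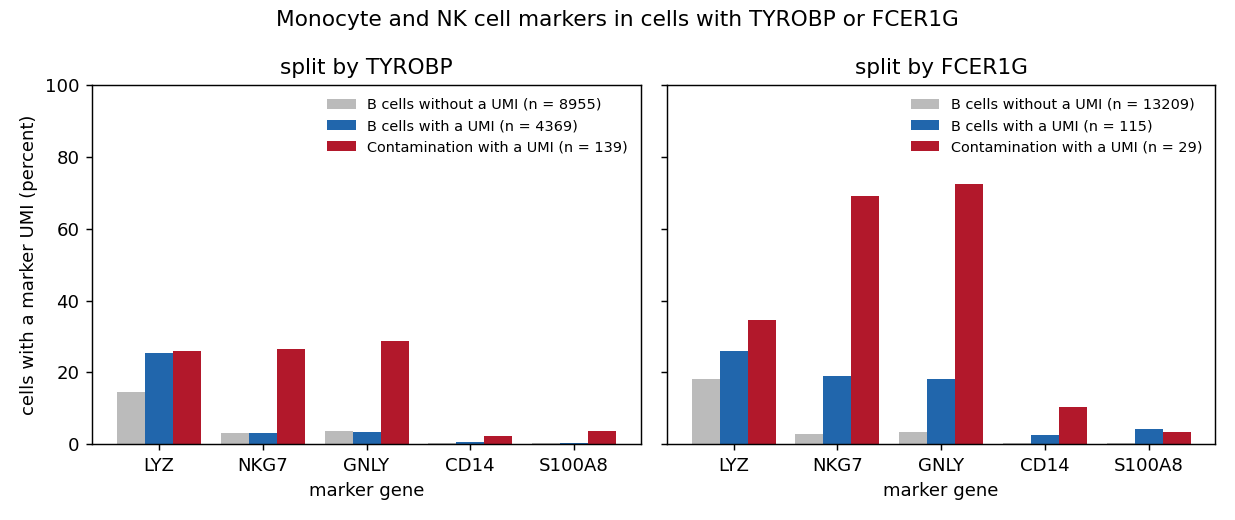
Percent of cells with a UMI of monocyte (LYZ, CD14, S100A8) and NK cell (NKG7, GNLY) markers, in B cells without (grey) and with (blue) a UMI of TYROBP (left) or FCER1G (right), and in Contamination cells with such a UMI (red). NKG7 is at 3.09% in TYROBP-positive and 19.1% in FCER1G-positive B cells.

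FCER1G was near the limit of detection in every B cell subtype. It gave a UMI in 115 of 13324 B cells (0.863%), 97 of which held exactly 1, with 147 UMIs in all. Subtype means ran from 0 to 6.74 CPM. The highest mean, in antibody-secreting cells (n = 3), rested on a single UMI. M-MZL BC had 5.72 ± 5.41 CPM (0 to 14.3) and M-MBC 2 had 1.24 ± 1.98 CPM (0 to 4.46). No neighbours in the order of FCER1G levels differed by more than 1 SD. No UMI was seen in 446 Naive B cells 2, for which 3 counts would be a share of 0.673% and the exact binomial interval reaches 0.824%, or in 125 Naive B cells 3 (2.40% and 2.91%). These limits are on cells with a UMI at median depths of 2571 and 1882 UMIs, not on cells that express the gene.

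The Contamination cells held more FCER1G. Its UMIs were in 29 of 525 of these cells (5.52%, interval 3.73% to 7.84%, median 1931 UMIs per cell), and the level was 27.8 ± 33.1 CPM. The animals split there, with 0 CPM in male 1, female 2 and female 4, 38.1 in male 2, 51.2 in female 1 and 77.7 in female 3. In those 29 cells NKG7 was found in 69.0% and GNLY, another cytotoxic granule gene, in 72.4%. TYROBP UMIs per FCER1G UMI came to 4.82 in Contamination cells. Pooled over animals the subtypes ran from 10 in antibody-secreting cells (1 FCER1G UMI) and 11.9 in C-MBC 2 (8 FCER1G UMIs) to 214 in M-MBC 2 (13 FCER1G UMIs, from 2 animals). B cells of single animals ran from 40.7 in female 4 to 198 in male 1. In the 3 animals with FCER1G in both groups, B cells and Contamination cells had 142 and 7.44 in male 2, 54.6 and 5 in female 1, and 86.2 and 3.46 in female 3.

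Genes of NK cells and of monocytes were both more frequent in the B cells that held FCER1G than in those without. NKG7 was in 22 of 115 FCER1G-positive B cells (19.1%, median 7243 UMIs per cell) against 2.92% of negative cells (median 5337), and GNLY in 18.3% against 3.38%. S100A8 was in 4.35% against 0.333%, CD14 in 2.61% against 0.462% and LYZ in 26.1% against 18.2%. In M-MZL BC, NKG7 was in 9 of 17 such cells (52.9%), and in CD11c+ MBC 2 in 7 of 15 (46.7%). It was in 2 of 16 in CD11c+ MBC 1, in 1 of 17 in M-MBC 1, in 1 of 13 in M-MBC 2, in 0 of 11 in C-MBC 1 and in 0 of 10 in Naive B cells 1. S100A8 was in 4 of 17 such cells of M-MBC 1. Without cells holding LYZ or NKG7, FCER1G was at 1.24 ± 1.51 CPM in M-MZL BC and between 0 and 5.18 CPM in Contamination cells.

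By heavy chain class, read from the BCR libraries, TYROBP was highest in IgM cells. In memory subtypes (names with MBC) IgM cells had 299 ± 68.8 CPM, from 214 through a median of 300 to 383 (n = 6). IgG cells had 70.3 ± 45.5 CPM, from 26.7 through a median of 64.0 to 156, entirely below the IgM cells. IgD cells lay between, at 163 ± 59.9 CPM and from 68.4 to 239, and overlapped both. IgA cells had 50.4 ± 58.7 CPM (n = 5), with 154 CPM in female 1 and 10.6 to 35.7 CPM in the others. Over all B cells the ranges of IgM and IgG cells overlapped. IgM cells had 245 ± 65.4 CPM there (153 to 333) and IgG cells 75.5 ± 49.2 CPM (27.3 to 170). A TYROBP UMI was found in 47.3% of IgM, 38.1% of IgD, 18.1% of IgG and 20.7% of IgA memory cells, although the median depth was higher in IgG (6771 UMIs) than in IgM cells (5443). FCER1G did not separate the classes, with 1.55 ± 1.45 CPM in IgM, 1.24 ± 2.00 in IgD, 1.91 ± 1.53 in IgG and 4.47 ± 6.17 in IgA cells.

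**Figure D3:**
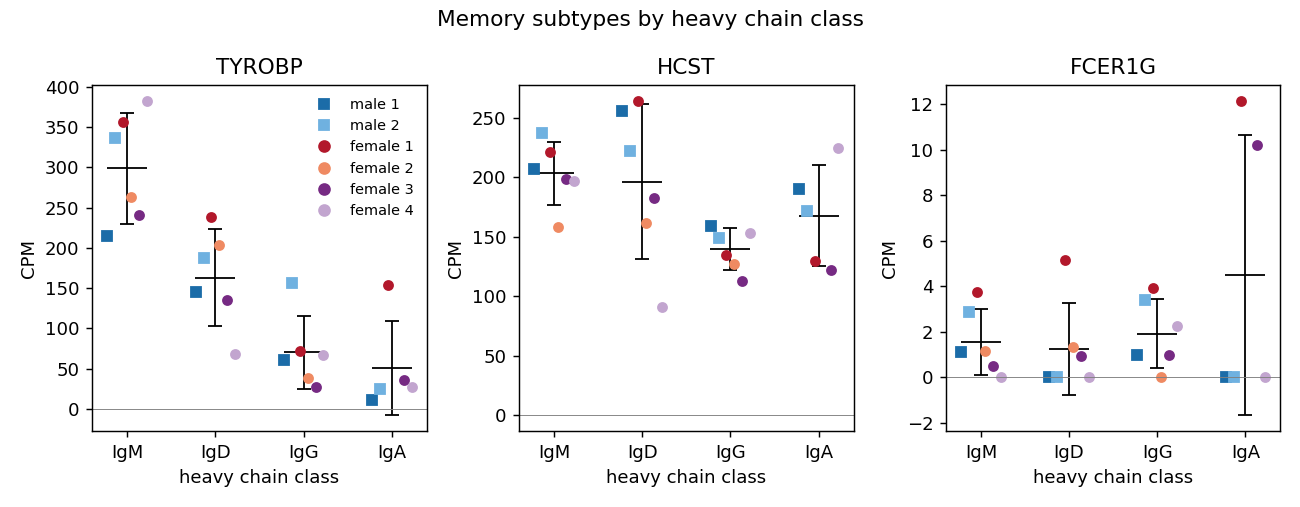
TYROBP, HCST and FCER1G in CPM by heavy chain class in memory subtypes, 1 point per animal with the mean and SD in black (IgA in 5 animals). For TYROBP the lowest IgM animal (214) lies above the highest IgG animal (156), whereas the FCER1G classes overlap.

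Class and subtype go together in these cells, so unswitched (IgM or IgD) and switched (IgG, IgA or IgE) cells of 1 subtype and animal were set side by side. In CD11c+ MBC 2, unswitched cells had 238 ± 51.2 CPM of TYROBP and switched cells 45.7 ± 28.7 CPM, with no overlap and the same direction in 5 of 5 animals. In C-MBC 1 the levels were 172 ± 78.1 and 54.9 ± 39.5 CPM, again in 5 of 5 animals. In CD11c+ MBC 1 they were 225 ± 66.4 and 106 ± 85.8 CPM, and male 2 alone of 6 animals was higher in switched cells (276 against 221 CPM). M-MBC 1 had 220 ± 69.9 and 136 ± 78.8 CPM and the same direction in 4 of 5 animals. M-MBC 2 had 521 ± 161 and 346 ± 262 CPM in the 3 animals with enough switched cells, and these went different ways. Unswitched and switched cells had 701 and 316 CPM in female 1 and 389 and 101 CPM in female 3, but 474 and 622 CPM in male 2. C-MBC 2 was low in both, at 53.4 ± 3.03 and 39.3 ± 12.8 CPM (n = 3). By subtype, the ratio of the unswitched to the switched mean ran from 1.36 in C-MBC 2 to 5.22 in CD11c+ MBC 2.

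**Figure D4:**
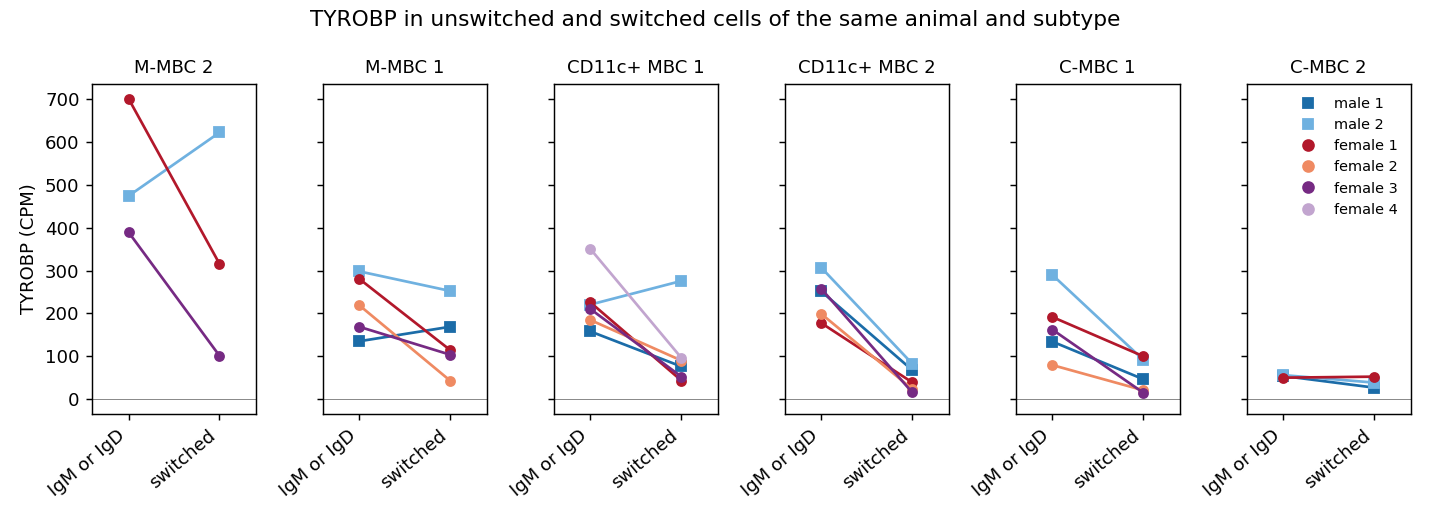
TYROBP in CPM for unswitched and switched cells, 1 line per animal, in each of 6 memory subtypes; animals with fewer than 10 cells in either state are not drawn. All 5 lines of CD11c+ MBC 2 and all 5 of C-MBC 1 run downward, and M-MBC 2 starts from the highest levels.

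HCST encodes DAP10, a related adaptor that signals through phosphatidylinositol 3-kinase instead of an ITAM, and its gene lies directly beside TYROBP without overlap in the RefSeq annotation (T2T-MMU8v2.0). HCST varied less than TYROBP across subtypes, with 218 ± 37.1 CPM in M-MBC 2, 158 ± 20.3 CPM in Naive B cells 1 and the highest mean, 325 ± 88.2 CPM, in Activated B cells. It was 203 ± 26.7 CPM in IgM and 139 ± 17.7 CPM in IgG memory cells. Fitted over pairs of the same animal and subtype, HCST was lower in switched cells by a log2 of -0.26 ± 0.07 (edgeR, adjusted p = 0.022), in 18 of 27 pairs. That call was lost without male 2 (adjusted p = 0.154), without female 1 (0.0762) or without female 3 (0.0836), with DESeq2 (0.0678), and without cells holding LYZ or NKG7 (0.11). C-MBC 2 went the other way in 3 of 3 animals, with 100 ± 30.4 CPM in unswitched and 141 ± 61.4 CPM in switched cells. In CD11c+ MBC 2 unswitched cells were higher in 3 of 5 animals.

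Receptor genes listed as partners of these adaptors were rare where they had a row in the count table. Of 18 TYROBP-pairing receptors on the list, 9 had a row in the table, 2 of those had no UMI, and none was found in 1% of B cells. The most frequent gene of that list was KLRD1, in 68 B cells (0.510%), and TREM1, a myeloid activating receptor, was in 17. KLRD1 encodes only the CD94 chain of NK cell receptors, and KLRC2, KLRC3 and KLRC4 of the same list had no row. Receptors without a row could not be judged. Of 20 FCER1G-pairing receptors, 17 had a row. LILRA2, an activating leukocyte immunoglobulin-like receptor, was in 404 B cells (3.03%) at 5.57 ± 3.31 CPM, with its highest mean, 15.1 ± 6.85 CPM, in M-MBC 1. NCR3, an NK cell activating receptor, was in 348 B cells (2.61%), and the remaining listed ones were each in under 1%. The high-affinity IgE receptor alpha chain gene FCER1A had no UMI in any B cell.

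Switched and unswitched cells were then compared for other genes with edgeR (animal and subtype as block). The 54 sums came from 6 animals, so subtypes of 1 animal entered as separate pairs that are not independent. Calls were made for 5.17% of 5049 genes, with 2.26% higher after the switch and 2.91% lower, and the median log2 was -0.00. Among 10 other ITAM proteins and adaptors, 5 were tested and 3 were lower: HCST, the B cell receptor chain CD79B (log2 -0.29 ± 0.06, edgeR, adjusted p = 0.000182) and the T cell receptor chain CD3D (-0.52 ± 0.16, 0.0378). Their median was -0.26. The CD3D call was lost without male 1, male 2 or female 2 (adjusted p up to 0.151), and T cells express CD3D as a defining marker. Of 28 kinases and adaptors tested, 3 were lower and none higher: the ubiquitin ligase CBLB, the exchange factor VAV3 and the kinase PRKCB. VAV3 differed by -0.48 ± 0.10 (adjusted p = 0.000568, edgeR). The median of the 28 was -0.04, and the PRKCB call was lost without male 1, female 1, female 2 or female 3 (adjusted p up to 0.133). Of 10 receptors with inhibitory motifs and their phosphatases, CD72 (-0.81 ± 0.14, adjusted p = 2.15e-05, edgeR) and LILRB1 (-0.34 ± 0.10, 0.0339) were lower. LILRB1 was not called without male 1, male 2, female 1 or female 2 (adjusted p up to 0.318). Among 13 atypical memory genes tested, LILRB1 was the one lower, and TOX, a transcription factor, was higher in switched cells, by 1.16 ± 0.11, in 27 of 27 pairs.

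To see which genes went with TYROBP inside subtypes, positive memory cells were paired with negative cells of the same animal, subtype and switched state and of the nearest depth (2032 pairs). Where positive cells outnumbered negative ones, the surplus was left out, so 588 of 786 positive cells of female 1 were used. M-MBC 2, with 644 positive and 285 negative cells over all classes, therefore counts for less than its share of positive cells. Apart from TYROBP itself, 57 of 8419 genes passed the test, 41 higher and 16 lower in positive cells (0.689% of genes called, TYROBP included, 0.499% higher and 0.19% lower). HCST was higher in every animal. Its level in positive and negative cells was 236 and 158 CPM in female 1, 191 and 147 in female 2, 222 and 159 in female 3, 189 and 114 in female 4, 251 and 201 in male 1, and 240 and 214 in male 2. The log2 difference was 0.43 ± 0.06 (edgeR, adjusted p = 2.61e-06).

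HCST, LGALS3 and EYA2 were the 3 genes that were called again under every alternative with an animal block. LGALS3 encodes galectin-3, a lectin of myeloid and activated cells, and was higher by 0.60 ± 0.09 (edgeR, adjusted p = 4.6e-05) in 6 of 6 animals. EYA2, a transcriptional coactivator named here after its values were seen, was lower by a log2 of -0.57 ± 0.08 (edgeR, adjusted p = 7.32e-06) in 5 of 6 animals. Other genes higher in all 6 animals were the RNA-binding protein gene RBM47 (0.81), the extracellular sulfatase SULF2 (0.78), the MiT family transcription factor TFEC (0.66), the acyl-CoA hydrolase ACOT7 (0.55), DNAAF2 (0.48) and the heme oxygenase HMOX1 (0.46). Genes lower in all 6 animals were HSDL2 (-0.57), KIR3DL0 (-0.46), ARRDC3 (-0.46), ZNF318 (-0.36), SPAG16 (-0.30), the lectin-like ligand CLEC2D (-0.29), RGCC (-0.26) and the tetraspanin TSPAN33 (-0.17). KIR3DL0 belongs to a family of near-identical genes, so its counts are uncertain. Except for SPAG16 and RBM47, these were not called when 1 or more single animals were left out, and 12 of the 57 genes were called again without cells holding LYZ or NKG7.

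Leaving aside NKG7, which belongs to the check of positive cells, 2 of 3 NK cell markers tested were called higher, where 0.499% of all genes were. The granule genes GNLY (1.92 ± 0.18) and GZMB (1.90 ± 0.18, both with adjusted p under 1e-09 by edgeR) were higher in 5 and 4 of 6 animals. GZMB was 524 CPM in positive cells of female 4 and 119 in its negative cells, and between 3.03 and 50.6 CPM in positive cells of the other animals. Without cells holding LYZ or NKG7 the GNLY difference was -0.057, and neither gene was called by DESeq2 (adjusted p = 0.389 and 0.228). The hemoglobin gene HBA was lower by a log2 of -1.72 ± 0.24 (edgeR, adjusted p = 7.32e-06) but by -0.21 without male 2 (adjusted p = 0.889). LYZ, which belongs to the check, was 61.4 ± 25.7 CPM in positive and 47.1 ± 22.3 CPM in negative matched cells.

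**Figure D5:**
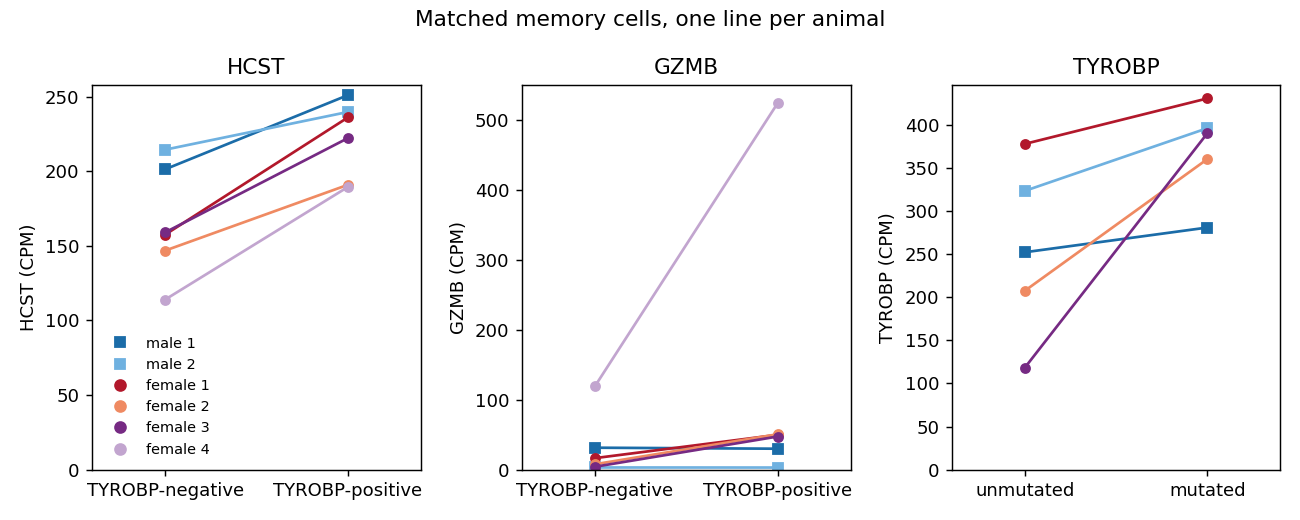
CPM per animal in matched memory cells: HCST (left) and GZMB (middle) in TYROBP-negative and TYROBP-positive cells, and TYROBP (right) in unmutated and mutated unswitched memory cells (5 animals). HCST rises in all 6 animals, GZMB is dominated by female 4 at 524 CPM, and TYROBP is higher in mutated cells of all 5 animals, most in female 3.

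In the same matched cells, no called gene was found among 35 kinases and adaptors tested (median log2 0.00, against -0.00 for all genes), 14 receptors with inhibitory motifs and their phosphatases (median 0.08), 15 atypical memory genes (0.04) or 10 B cell markers (-0.02). The smallest p in these lists belonged to TOX (-0.29 ± 0.08, edgeR, adjusted p = 0.0653) and CBLB (0.15 ± 0.04, 0.086). HCST was the only called one of 8 other ITAM proteins and adaptors tested, where 0.689% of all genes were called.

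The same pairing around FCER1G had little depth, with 61 positive memory cells of known class, 1 to 33 per animal and 10 or more in 2 animals only. No gene of 446 tested was called by edgeR (0.0% called), with 10 at an unadjusted p under 0.05, and DESeq2 called 0 with 11. Leaving the filter on low counts out gave 12 called genes besides FCER1G and NKG7, the latter being part of the check. GNLY (log2 5.53), GZMB (6.30), GZMA (5.12), PRF1 (5.04), KLRB1 (5.11), CST7, CCL5, CCL4L1 and CD7 are known from cytotoxic lymphocytes, S100A9 (5.32) from myeloid cells, and ID2 and RGS9 made up the rest. They were named after their values were seen. These fitted values come from very few UMIs and are no measure of size. Without the pairing, which left depth, subtype and class unmatched, 21 genes were called, FCER1G included. GNLY, GZMB and NKG7 were called again, S100A9 was not, and the platelet genes PPBP (log2 1.77) and PF4 (1.31) were also higher.

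Finding both adaptors in 1 cell was also examined. After thinning to 2000 UMIs, 16 B cells held both, 25 held FCER1G alone and 2355 TYROBP alone. The log2 odds ratio within subtypes was 2.19 ± 1.66 and above 0 in 5 of 5 animals that gave a value (exact sign-flip permutation test, two-sided, p = 0.0625, the smallest that 5 animals allow). Male 1 had cells with FCER1G alone and none with both, and gave no value. The shared direction therefore rests partly on which animals could enter, and the p does not cover male 1. Unthinned, 62 cells held both and the ratio was 1.13 ± 0.19 in 5 animals. Without cells holding LYZ or NKG7, 6 cells held both and only 2 animals gave a value, 1.30 on average.

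Somatic mutation was read from the BCR libraries and had not been used to choose the genes. Unswitched memory cells with 2 or more differences per 100 bases of the heavy V region from a common sequence of the animal were paired with cells under 1, by animal, subtype and depth (660 pairs, 5 animals). TYROBP was 430 and 378 CPM in mutated and unmutated cells of female 1, 360 and 207 in female 2, 390 and 118 in female 3, 281 and 252 in male 1, and 396 and 323 in male 2. It was higher in mutated cells in 5 of 5 animals, by a log2 of 0.58 ± 0.13 (edgeR, adjusted p = 0.00795), where 2.32% of 6738 genes were called, 1.08% higher and 1.23% lower. Without female 3 the difference was 0.34 and the call was lost (adjusted p = 0.0661). It was also lost with DESeq2 (0.62, adjusted p = 0.883) and with immunoglobulin and unnamed genes kept (0.59, adjusted p = 0.0729). HCST differed by 0.18 ± 0.10 (adjusted p = 0.487, edgeR) and LYZ by 0.07 ± 0.14. The pairs were not matched for IgM or IgD, which had 299 and 163 CPM of TYROBP in memory subtypes. The part of class in the TYROBP difference was not tested. V divergence of TYROBP-positive against negative memory cells, given below, went the other way without a called difference.

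In the same pairs, the inhibitory receptors LILRB1 (log2 -1.14 ± 0.14, edgeR, adjusted p = 1.42e-06) and CD72 (-0.80 ± 0.18, 0.00999) were lower in mutated cells, and the costimulatory ligand CD86 was higher (0.39 ± 0.08, 0.00202), each in 5 of 5 animals. CD72 was not called without male 1 (adjusted p = 0.081) or without female 3 (0.0503). The T cell receptor chains CD3G (1.61 ± 0.21) and CD3D (1.34 ± 0.19) were higher in 5 of 5 animals, and were 2 of 3 T cell markers tested. The B cell receptor chain CD79A was lower by a log2 of -0.25 ± 0.05 in 4 of 5 animals, a call lost without male 2, female 1 or female 3. The part of T cell RNA in the TYROBP difference was not tested. Of 32 kinases and adaptors tested, PIK3AP1 alone was called (-0.28 ± 0.07), a share near the 2.32% of all genes, and not without male 1, female 1 or female 3.

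TYROBP did not differ detectably between light chain types or sexes. In kappa and lambda B cells it was 172 ± 66.6 and 172 ± 50.8 CPM, a log2 difference of 0.03 ± 0.05 (edgeR, adjusted p = 0.984, 0.0921% of genes called), and FCER1G differed by -0.13 ± 0.29 (adjusted p = 0.991). Over all B cells TYROBP was 239, 136, 116 and 148 CPM in females 1 to 4 and 127 and 266 CPM in males 1 and 2, so the sexes overlapped. The female minus male log2 difference was -0.44 ± 0.35 (edgeR, adjusted p = 0.539, 0.34% of genes called) and became 0.21 without male 2. FCER1G was 4.37, 1.88, 1.34 and 3.62 CPM in the females and 0.642 and 1.87 CPM in the males, a difference of 0.98 ± 0.70 (adjusted p = 0.489).

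Receptor features of positive memory cells were compared within subtype and switched state. TYROBP-positive cells had 2.28 V region differences per 100 bases and negative cells 2.45, a difference of -0.165 ± 0.205 that was above 0 in 1 of 6 animals (exact sign-flip permutation test, p = 0.0938, adjusted p = 0.562 over 6 tests). This direction is opposite to the higher TYROBP of mutated unswitched cells, and it reversed when positive cells needed 2 or more UMIs. Heavy CDR3 lengths of TYROBP-positive and negative cells differed by -0.0574 residues (exact permutation test, p = 0.75), and their kappa shares were 48.8% and 48.4%. For FCER1G, with 56 to 61 positive cells, the smallest adjusted p of the 3 features was 0.844 in the same exact permutation test. The lowest p that 6 animals allow is 0.0312.

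Across 67 sums by animal and subtype, centred per animal, the genes whose log2 CPM was most like that of TYROBP among 6698 were LFNG (Pearson r = 0.83), a glycosyltransferase that modifies NOTCH, the tubulin TUBB6 (0.80), the MS4A family gene MS4A7 (0.80), the cytoskeletal adaptor PSTPIP1 (0.78) and the inhibitory lectin SIGLEC10 (0.77). PSTPIP1 was 165 ± 37.0 CPM in M-MBC 2, 129 ± 24.5 CPM in Activated B cells and 66.0 ± 17.3 CPM in Naive B cells 1. LFNG was not highest in M-MBC 2 (115 ± 66.2 CPM) but in Activated B cells (153 ± 82.8 CPM). SIGLEC10 was highest in CD11c+ MBC 2 (258 ± 57.4 CPM), where TYROBP was low, with 214 ± 105 CPM in M-MBC 2. LYZ ranked 23 (r = 0.70), HCST 236 (0.58) and FCER1G 2866 (0.19). For FCER1G the highest values were 0.46 (GZMB) and 0.46 (MLF2), which in such sparse counts is no finding. These sums share libraries, and depth differs between subtypes, so the values are descriptive.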

How the data were processed

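The submitters' processing notes name Seurat 5.0.1, Cell Ranger 9.0.1 and R 4.3.1. No genome build is given in the sources used here. The authors deposited 1 table of raw UMI counts with their cell annotation, including the percent of mitochondrial and ribosomal UMIs per cell in the deposited cell table, and lists of assembled receptor contigs with counts of UMIs. The 2 genes and all gene lists were chosen with earlier results of these data known.

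Counts were summed per animal and cell group (10 or more cells for levels and class comparisons). The 5813 identifiers without a gene name (14.9% of UMIs) and 23 immunoglobulin genes (0.186%) were left out, which kept 16748 genes. The test was the quasi-likelihood test of edgeR 4.0.16 (TMM scaling, filterByExpr, Benjamini-Hochberg adjusted p under 0.05) in R 4.3.3 with limma 3.58.1, with the animal as a block (animal and subtype for switched cells), since both states of a pair come from the same animal. The sex comparison had no block. DESeq2 1.42.0 was an alternative. The procedure was also run on simulated counts, with the same dispersion for every gene and no difference between animals except depth. The real sums differ in both respects, so that run does not measure the error rate of the calls reported here. Animals are the replicates, 6 in all and 1 expression library each. The switched comparison is the exception, where 54 sums by animal, subtype and state came from these 6 animals. Its p-values and counts of pairs therefore do not measure the spread between animals alone.

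Genes were named by rule: up to 8 per direction with the largest log2 difference, if called, 1 direction in every animal and at least 4 in mean log2 CPM, and the 3 smallest p of each list. V divergence is the difference per 100 bases from the nearest V sequence seen with 5 or more distinct CDR3 among IgM or IgD cells of the animal. The alternatives were other size factors, no filter, DESeq2, all genes kept, no cells with LYZ or NKG7, no block, no pairing by depth, 1 animal left out, and other thresholds. Total UMIs per animal set the precision of each level.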

Additional observations from a re-analysis of the deposited data

Results flagged for a closer look

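Among 38 groups of 4 to 6 animals examined, 9 held an animal far from the others. The threshold is set to flag about 1 in 20 groups by chance when values are normally distributed. Levels from few UMIs, as for FCER1G, need not be, so the 9 cannot be set against that rate. The groups overlap, since memory cells of a class are also among all B cells of that class. Male 2 had the TYROBP level apart from the other animals in CD11c+ MBC 2 (183 CPM), in Naive B cells 2 (159 CPM), in IgG cells of all B cells (170 CPM) and in IgG cells of memory subtypes (156 CPM). Female 1 stood apart for TYROBP in IgA cells, at 135 CPM over all B cells and 154 CPM in memory subtypes, and for FCER1G in IgD memory cells, at 5.16 CPM from 4 UMIs. Female 4, the animal with the fewest cells, stood apart for FCER1G in M-MBC 1 (12.7 CPM from 2 UMIs) and Naive B cells 1 (6.60 CPM from 3 UMIs). The cells annotated as Contamination, which enter none of the tests, held an FCER1G UMI in 5.52% of cells.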

How the results depend on the processing

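Numbers of called genes moved with the processing, and the cause was not tested. Without the filter on low counts, the numbers were 90 for TYROBP-positive cells (58 as reported), 14 for FCER1G-positive cells (0), 242 for mutated cells (156), 34 for kappa against lambda (9) and 67 for females against males (38). DESeq2 gave 10, 0, 42, 0 and 612 in the same order. With unnamed and immunoglobulin genes kept, the numbers were 21 for TYROBP, 101 for mutated cells, 89 for light chains and 72 for sex. Without cells holding LYZ or NKG7 they were 14 for TYROBP and 1 for light chains. Without pairing by depth they were 417 for TYROBP, 21 for FCER1G and 822 for mutated cells.

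Without the replicate block, which sets aside that pairs come from 1 animal, 5 genes were called between switched and unswitched cells (261 with it), 1 for TYROBP, 1 for mutated cells and 0 for light chains. The TYROBP difference between mutated and unmutated cells was 0.54 without the block, 0.62 with DESeq2 and 0.59 with all genes kept, each past no threshold.

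Leaving out 1 animal gave 158 (without female 3) to 264 called genes for switched cells, 25 (without female 1) to 59 for TYROBP, 0 to 1 for FCER1G, 79 (without female 1) to 154 for mutated cells, 2 (without male 2) to 14 for light chains and 7 to 136 for sex. TYROBP in mutated cells ran from 0.34 to 0.74 and LYZ from -0.065 to 0.21. Between light chains TYROBP ran from -0.026 to 0.065 and FCER1G from -0.22 to 0.096. Between sexes TYROBP ran from -0.89 to 0.21.

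Without cells holding LYZ or NKG7, the GNLY difference was -0.057 in TYROBP-positive cells. Receptor features changed sign, none with a called difference. TYROBP V divergence was 0.257 with 2 or more UMIs. Without cells holding LYZ or NKG7, CDR3 length was 0.0764 and kappa share -0.751 for TYROBP, and kappa share 7.38 for FCER1G. Leaving out 1 animal, TYROBP CDR3 length ran from -0.200 to 0.0103 and kappa share from -0.647 to 0.909, and FCER1G V divergence ran from -0.146 to 0.192 and kappa share from -13.1 to 6.21.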
